A study of Rattus norvegicus with 13 samples.

Results

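Rat kidney glomeruli were profiled on 13 one-colour expression arrays, and the genes described here are those with which proximal tubule cells take up filtered protein: Lrp2 (megalin), Cubn (cubilin), Dab2 (their adaptor) and Clcn5 (the endosomal chloride exchanger). Every probe set whose only platform gene symbol was one of these 4 names was taken, which gave 4 of 15923 probe sets, 1 for each gene, out of 10411 genes with such a symbol. All rats were untreated, 18 weeks old, on a regular diet and, per the series' design text, of the Lewis-Hsd strain. The sieved group (titled iron, n = 4) holds unamplified RNA of glomeruli loaded with iron oxide and collected by sieve and magnet, for which the labels' protocols give a purity over 99% by phase contrast microscopy. The LCM800 (n = 5) and LCM20 (n = 4) groups hold RNA of glomeruli cut from 10 µm frozen sections of the opposite kidney by laser capture microdissection, amplified in 2 rounds. Amplification and the way of isolation therefore change together between the sieved and the microdissected groups and cannot be told apart. The protocols give about 800 glomerular cross-sections for both microdissected groups, do not say what the 20 in the title LCM20 stands for, and carry a description of embryos and a mention of anti-Thy1.1 treatment that go against the other fields. The titles call the samples biological replicates without naming the animals, so p-values measure the spread between these samples, which may be partly technical.

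Megalin is a very large receptor of the LDL receptor family on the brush border of proximal tubule cells, and cubilin is a peripheral receptor that needs the membrane protein amnionless to reach the surface. Both bind filtered albumin, vitamin-binding proteins and hormones, and Dab2 links the megalin tail to the clathrin coat. Vesicles then fuse with endosomes that a proton pump acidifies while ClC-5, the Clcn5 product, carries chloride against protons, and the cargo is broken down in lysosomes. In rats megalin is also known from podocytes, where it is the target antigen of Heymann nephritis, and Dab2 is known from macrophages and other cells outside the tubule.

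The sequences around the annotated start sites of the 3 genes that were lower after microdissection are shown to allow these windows to be set side by side. Whether each annotated start is a true transcription start, and each window a promoter, was not tested. All 4 genes had an entry in the RefSeq promoter table (build GRCr8), each window running from 250 bases before to 50 bases after the start and printed 5′ to 3′ on the gene's strand. Capitals mark the GC box GGGCGG or its reverse complement.
Lrp2, chr3:74754486-74754785, minus strand: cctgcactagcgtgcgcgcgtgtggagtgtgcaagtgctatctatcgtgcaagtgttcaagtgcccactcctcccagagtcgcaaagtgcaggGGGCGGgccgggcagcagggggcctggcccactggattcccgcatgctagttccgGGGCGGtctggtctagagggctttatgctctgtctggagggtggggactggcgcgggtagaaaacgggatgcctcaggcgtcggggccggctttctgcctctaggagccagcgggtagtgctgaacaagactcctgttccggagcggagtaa
Cubn, chr17:81501645-81501944, minus strand: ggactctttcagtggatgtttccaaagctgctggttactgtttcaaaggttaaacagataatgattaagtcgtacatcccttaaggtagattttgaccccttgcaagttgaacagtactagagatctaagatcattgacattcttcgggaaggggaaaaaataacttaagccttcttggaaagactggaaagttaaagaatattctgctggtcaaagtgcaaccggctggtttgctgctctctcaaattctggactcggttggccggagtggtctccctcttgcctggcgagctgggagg
Dab2, chr2:57272050-57272349, plus strand: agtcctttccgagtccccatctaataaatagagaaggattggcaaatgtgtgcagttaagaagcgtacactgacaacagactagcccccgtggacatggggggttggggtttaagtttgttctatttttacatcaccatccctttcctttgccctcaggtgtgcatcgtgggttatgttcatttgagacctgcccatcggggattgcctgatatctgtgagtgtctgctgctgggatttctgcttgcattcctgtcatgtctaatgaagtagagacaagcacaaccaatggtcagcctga

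The Lrp2 window was GC-rich, with 63.3% G or C and 20 CpG, and held 2 GC boxes, a motif found in 33.1% of the 33469 promoter windows of the table. The Cubn and Dab2 windows had 44.7% and 47.3% G or C with 6 and 5 CpG, below the median of 51.7% over all windows, and no GC box. The HNF1 motif GTTAAT (7.45% of windows), the HNF4 site CAAAGTCCA (0.391%) and TATAAA (14.2%) were searched on both strands and were not in any of these 3 windows, nor in the 2 windows of Clcn5, of which 1 held a GC box. These letters describe the windows only.

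All arrays had a trimmed mean near 500 intensity units, median signals of 237 to 321 units and no pair of identical columns, and their number limits the precision of every value. Sieved replicate 3 stood apart, with a Pearson r over tested probe sets of 0.87 to 0.90 to the other sieved arrays, which correlated among themselves at 0.96 to 0.98. LCM800 replicates 1, 2 and 3 correlated with replicates 4 and 5 at 0.72 to 0.81, against 0.89 to 0.93 within the former and 0.94 within the latter. The labels give no batch for either split. The podocyte gene Nphs1 (nephrin) was read in every group, at mean signals of 2301 sieved, 4725 LCM800 and 5274 LCM20 units. Of 13 podocyte genes 5 rose and 4 fell in LCM800, where 31.8% of all tested probe sets rose and 20.1% fell. In LCM20 6 rose and 2 fell, where 26.2% rose and 19.2% fell, so the list did not move one way. Tubule markers were read too. Over 27 of 31 proximal tubule marker genes on the array the summed signal ran from 98610 to 199385 units in sieved, 29914 to 67464 in LCM800 and 23024 to 65669 in LCM20 arrays, and no marker was at 0, the lowest single value being 19.1 units. Pck1, the marker of this list that did not fall in either microdissected group, made up 5.84% to 8.63% of that sum in sieved, 47.5% to 56.5% in LCM800 and 34.0% to 59.0% in LCM20 arrays. Over the other 26 markers the sum was 90097 to 187075, 15719 to 33694 and 9442 to 39609 units. The sums over 16 genes of the loop, distal tubule and collecting duct were 26392 to 56025, 19098 to 25120 and 7265 to 18185 units in the same order. Of these genes 10 fell and 1, Aqp2, rose in LCM800, and 13 fell and 0 rose in LCM20, beside the shares of all probe sets given above. The mean signals of Aqp2 were 4278 sieved, 9584 LCM800 and 3158 LCM20 units. The sums over the podocyte genes, in which Synpo and Cdkn1c are the brightest after microdissection, were 22654 to 56541, 44931 to 79670 and 39821 to 57847 units. The part of tubule RNA in the gene changes described here was not tested.

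Lrp2, Cubn and Dab2 were much lower in both microdissected groups than in sieved glomeruli, while Clcn5 was higher, past the test in LCM800 alone. Signals are in the arrays' linear intensity units. Lrp2 read 14049, 14415, 8145 and 12059 units in sieved replicates 1 to 4. It read 2297, 2552, 2626, 3855 and 2639 units in LCM800 replicates 1 to 5, and 3967, 3552, 3102 and 4000 units in LCM20 replicates 1 to 4. The lowest sieved array lay above the highest microdissected array, so the groups did not overlap. The mean signal in LCM800 was 23.0%, and in LCM20 30.04%, of the sieved mean. On the scale of log2(signal + 65.3), used for every change below, Lrp2 fell by 2.09 ± 0.23 in LCM800 (SE of the limma fit, n = 5 and 4; adjusted p = 4.22e-06). In LCM20 it fell by 1.69 ± 0.24 (SE, n = 4 and 4; adjusted p = 5.78e-05).

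Cubn, the partner receptor, had the lowest change of the 4 genes in both microdissected groups. Its sieved signals were 10605, 10873, 5471 and 9547 units. The LCM800 signals were 795, 326, 688, 661 and 406 units, and the LCM20 signals were 1775, 435, 1150 and 380 units. No microdissected array reached the sieved range, and LCM20 replicates 1 and 3 were well above replicates 2 and 4. The means were 6.31% and 10.2% of the sieved mean in LCM800 and LCM20. Cubn fell in both, with a change of −3.85 ± 0.39 in LCM800 (SE, n = 5 and 4; adjusted p = 2.30e-06) and −3.40 ± 0.41 in LCM20 (SE, n = 4 and 4; adjusted p = 1.43e-05). Of 11106 probe sets tested, 34 in LCM800 and 69 in LCM20 had a change this low or lower, Cubn included.

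Dab2, the adaptor, read 5212, 5063, 5855 and 6902 units in sieved arrays. In LCM800 it read 597, 379, 513, 1335 and 1073 units, and in LCM20 1322, 582, 675 and 917 units. Sieved and microdissected values did not overlap, and within LCM800 both of replicates 4 and 5 lay above all of replicates 1, 2 and 3, the split that the arrays show over all probe sets. The means were 13.5% and 15.2% of the sieved mean. Dab2 fell in both, with a change of −2.91 ± 0.32 in LCM800 (SE, n = 5 and 4; adjusted p = 4.31e-06) and −2.69 ± 0.34 in LCM20 (SE, n = 4 and 4; adjusted p = 1.92e-05). When LCM800 replicates 1, 2 and 3 were left out its LCM800 change was −2.19 (limma adjusted p = 0.00012). When replicates 4 and 5 were left out it was −3.38 (limma adjusted p = 4.33e-07).

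Clcn5, the chloride exchanger, was dim on every array, below the arrays' median signals in all groups but for LCM800 replicate 4. It read 157, 148, 70.6 and 110 units in sieved arrays. The LCM800 signals were 291, 212, 184, 290 and 201 units, and the LCM20 signals 191, 190, 244 and 151 units. All LCM800 values lay above all sieved values, while LCM20 replicate 4 fell inside the sieved range. The LCM800 and LCM20 means were 194% and 159.5% of the sieved mean. Clcn5 rose by 0.70 ± 0.21 in LCM800 (SE, n = 5 and 4; adjusted p = 0.0108), and its change of 0.49 ± 0.22 in LCM20 did not pass (SE, n = 4 and 4; adjusted p = 0.0815; 95% interval 0.02 to 0.95 before adjustment). Of the 11106 probe sets 27.8% in LCM800 and 34.8% in LCM20 had a change as high as that of Clcn5 or higher, Clcn5 included. The median change over these 11106 probe sets was 0.22 in LCM800 and 0.17 in LCM20. With the array medians set equal that of LCM800 was 0.11, and Clcn5 still rose there, by 0.61 (adjusted p = 0.0149).

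**Figure D1:**
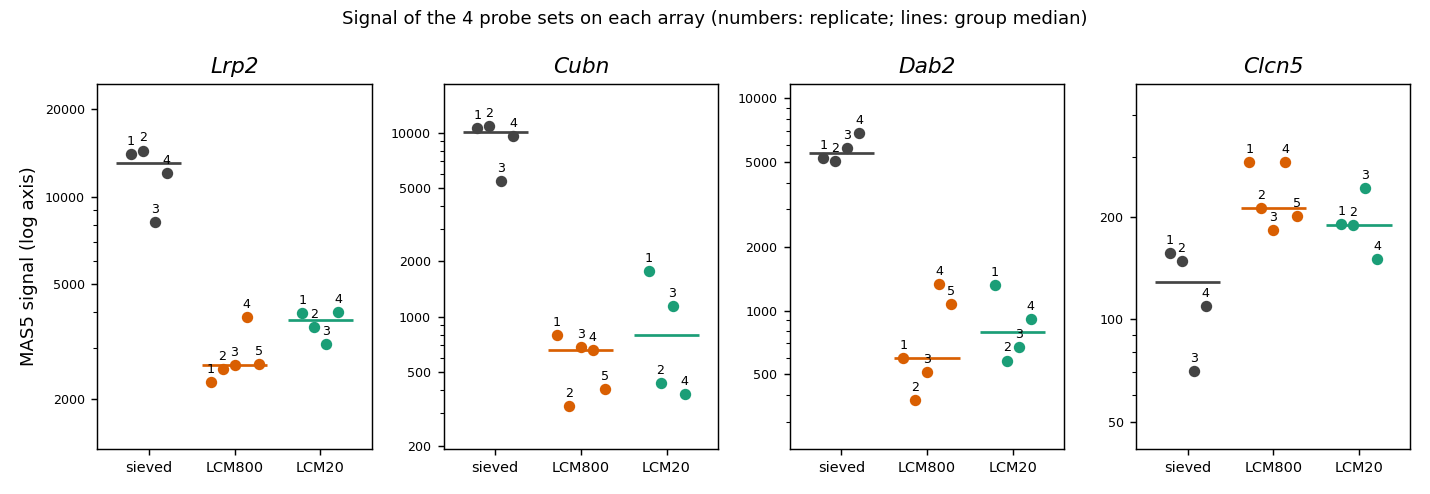
MAS5 signal in intensity units on a log axis for Lrp2, Cubn, Dab2 and Clcn5 in sieved, LCM800 and LCM20 arrays, with 1 point per array, numbered by replicate, and a line at the group median. Lrp2, Cubn and Dab2 of all 9 microdissected arrays lie under all 4 sieved arrays, and for Clcn5 the order is turned, with LCM20 replicate 4 (151 units) inside the sieved range.

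Counted together, 3 genes fell and 1 rose in LCM800 against sieved glomeruli, where 51.9% of all tested probe sets passed the test, 31.8% higher and 20.1% lower. In LCM20 3 fell and 1 did not pass, where 45.3% of probe sets passed, 26.2% higher and 19.2% lower. Ranges did not overlap for 4 of 4 genes in LCM800 (42.8% of all tested probe sets) and for 3 of 4 in LCM20 (43.8%). Both comparisons share the sieved arrays, so they are not independent of each other. The median change of the 4 genes was −2.50 in LCM800 and −2.19 in LCM20. In bulk RNA fewer tubule cells and less RNA of a gene per cell cannot be told apart. The log2 ratio of 3′ to 5′ control probe sets for β-actin was 0.53 to 0.57 in sieved, 1.71 to 4.01 in LCM800 and 1.33 to 2.29 in LCM20 arrays. For GAPDH it was 0.36 to 0.66, 0.68 to 2.02 and −0.22 to 3.06, and for hexokinase 0.62 to 0.92, −0.23 to 0.60 and 0.10 to 0.76 in the same order. The part of this 3′ to 5′ difference in the gene changes was not tested.

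LCM20 and LCM800 did not differ past the test for any of the 4 genes, in a comparison in which 0.153% of all probe sets passed, 0.072% higher and 0.081% lower. By limma the count was 0 of 4, and also 0 of 4 at an unadjusted p under 0.05, which 1952 of all 11106 probe sets had. The change was 0.40 for Lrp2 (95% interval −0.09 to 0.88; adjusted p = 0.376) and 0.45 for Cubn (−0.38 to 1.28; adjusted p = 0.557). It was 0.22 for Dab2 (−0.46 to 0.90; adjusted p = 0.749) and −0.21 for Clcn5 (−0.65 to 0.23; adjusted p = 0.619). All ranges overlapped, as they did for all but 3.84% of tested probe sets. The intervals leave room for a difference of up to 1.28 for Cubn, so they do not show that the groups are alike. For Dab2 the sign depends on the LCM800 arrays kept, with 0.70 without replicates 4 and 5 (adjusted p = 0.0665) and −0.49 without replicates 1, 2 and 3 (adjusted p = 0.662).

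**Figure D2:**
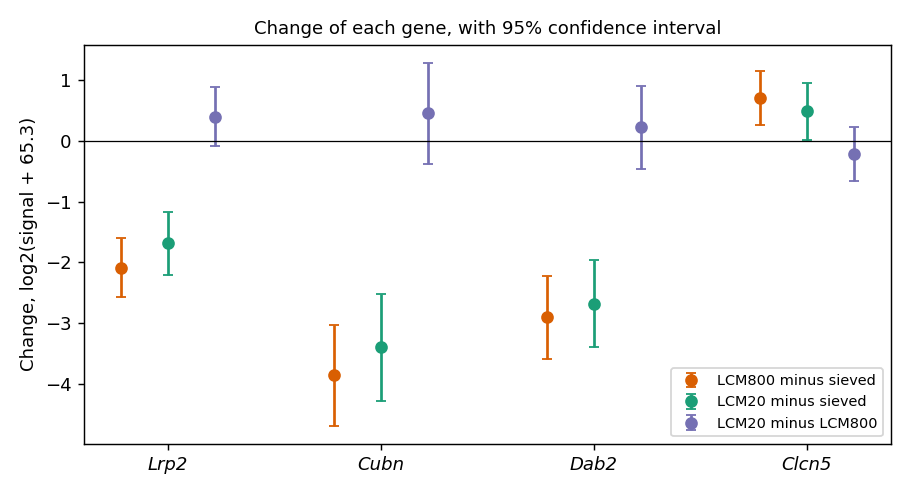
Change of each gene on the scale of log2(signal + 65.3) in LCM800 minus sieved, LCM20 minus sieved and LCM20 minus LCM800, with points for the fitted change and bars for its 95% confidence interval. The intervals of Lrp2, Cubn and Dab2 against sieved arrays lie below 0, and those of LCM20 minus LCM800 include 0 for all 4 genes.

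Whether the genes changed unequally was asked with the difference of log2 values of a pair of genes on the same array, over 6 pairs in each of 3 comparisons. The difference of Lrp2 and Cubn was 0.43 ± 0.10 in sieved (SD, n = 4), 2.20 ± 0.53 in LCM800 (SD, n = 5) and 2.14 ± 1.03 in LCM20 arrays (SD, n = 4). The change of Cubn was below that of Lrp2 by 1.77 in LCM800 (exact two-sided permutation p = 0.0159) and by 1.71 in LCM20 (exact permutation p = 0.0286), each the smallest p that its design allows. Adjusted over the 18 tests both became 0.0571 and did not pass. The signal of Cubn was 67.2% to 79.2% of that of Lrp2 in the sieved arrays, 12.8% to 34.6% in LCM800 and 9.50% to 44.7% in LCM20. These ratios describe probe set signals and not amounts of RNA.

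The change of Dab2 was below that of Lrp2 by 0.82 in LCM800 (exact permutation p = 0.0794, adjusted 0.119) and by 0.995 in LCM20 (exact permutation p = 0.0286, adjusted 0.0571). Cubn and Dab2 differed by −0.95 in LCM800 (exact permutation p = 0.0635, adjusted 0.104) and −0.72 in LCM20 (exact permutation p = 0.2, adjusted 0.257). The 3 pairs with Clcn5 had differences of −2.78 to −4.55 in LCM800 and −2.18 to −3.89 in LCM20, all at the smallest exact permutation p (0.0159 and 0.0286; adjusted p = 0.0571). None of the 18 tests passed after adjustment, and 9 were at their smallest p.

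**Figure D3:**
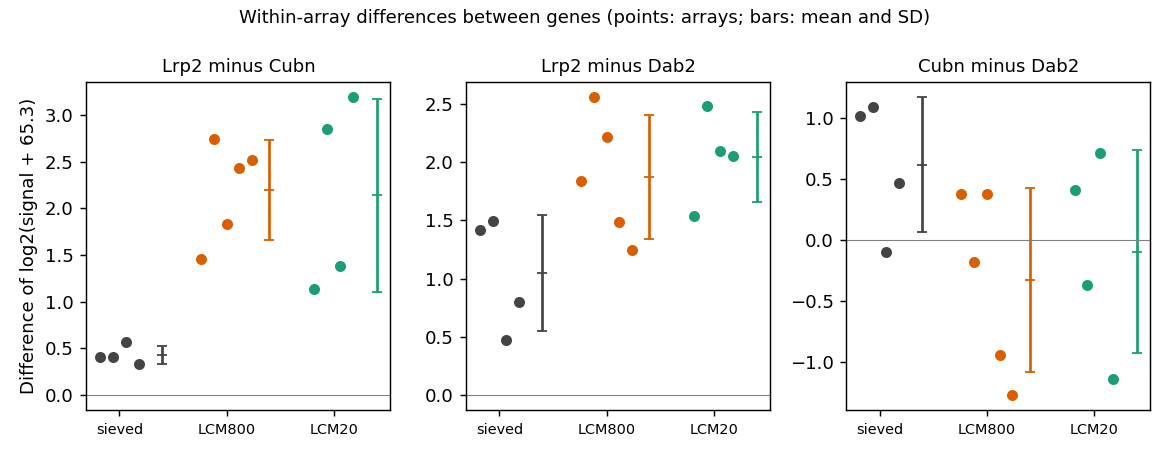
Difference of log2(signal + 65.3) between genes on the same array for Lrp2 minus Cubn, Lrp2 minus Dab2 and Cubn minus Dab2, with 1 point per array and the mean and SD of each group beside the points. Lrp2 minus Cubn lies between 0.34 and 0.57 in the sieved arrays and between 1.13 and 3.19 in the microdissected arrays.

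Within groups the genes varied differently. Sieved replicate 3 had 60.3% of the mean Lrp2 signal of the other sieved arrays, 52.9% for Cubn and 51.0% for Clcn5, but 102% for Dab2. The same array had 53.0% of the others' summed proximal tubule signal and 49.5% for the loop, distal tubule and collecting duct list. It had 216% for 13 podocyte genes and 247% for 12 glomerular endothelial genes. Mesangial genes were at 152%, parietal epithelial genes at 67.2% and macrophage and leukocyte genes at 70.0%. Low signals on this array were thus not limited to the tubule lists. Lrp2, Cubn and Clcn5 were low on it, and Dab2 was not. Its Clcn5 signal, 70.6 units, was close to the pseudocount. In LCM800 and LCM20, where both tubule sums were lower, mean Clcn5 was higher, at 194% and 159.5% of the sieved mean. What sets sieved replicate 3 apart was not tested. Without it the LCM800 changes were −2.27 for Lrp2, −4.08 for Cubn, −2.90 for Dab2 and 0.56 for Clcn5 (adjusted p = 0.0418), and all 4 still passed.

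In LCM20 the SD of Cubn was 0.99, larger than that of 97.9% of tested probe sets, while that of Lrp2 was 0.17, with 8.6% of probe sets smaller. Replicates 1 and 3, the high pair for Cubn, also had the highest summed proximal tubule signals of the group, 65669 and 39365 units against 23024 and 31831. Without Pck1 the sums were 39609 and 25995 against 9442 and 18365 units, in the same order. In LCM800 the SD of Dab2 was 0.69, against a median of 0.39 over tested probe sets, and that of Lrp2 was 0.28. The 2 arrays high in Dab2, replicates 4 and 5, had the lowest summed proximal tubule signals of LCM800, 29914 and 38772 units against 46045 to 67464. Without Pck1 these were 15719 and 19368 units against 20032 to 33694. Dab2 and the tubule sum, with or without Pck1, thus had opposite orders between these 2 sets of LCM800 arrays. Lrp2 was also higher in replicates 4 and 5, at 3855 and 2639 units against 2297 to 2626, while Cubn and Clcn5 did not divide in this way. In LCM20 Dab2 was highest in replicate 1 (1322 units) and lowest in replicate 2 (582 units), as was the tubule sum with or without Pck1. Of 11 tested macrophage and leukocyte genes 6 rose and 1 fell in LCM800 (31.8% and 20.1% of all probe sets), and 4 rose and 1 fell in LCM20 (26.2% and 19.2%). The summed signal of the list's 12 genes was 9692 to 14180 units in sieved, 10590 to 12562 in LCM800 and 8258 to 15238 in LCM20 arrays. Cd74, the 1 gene that fell, was the brightest of the list in sieved arrays. Its mean signals were 7491 sieved, 2276 LCM800 and 1598 LCM20 units, so the sums do not follow the genes that rose. The part of the listed genes in the Dab2 signal was not tested.

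**Figure D4:**
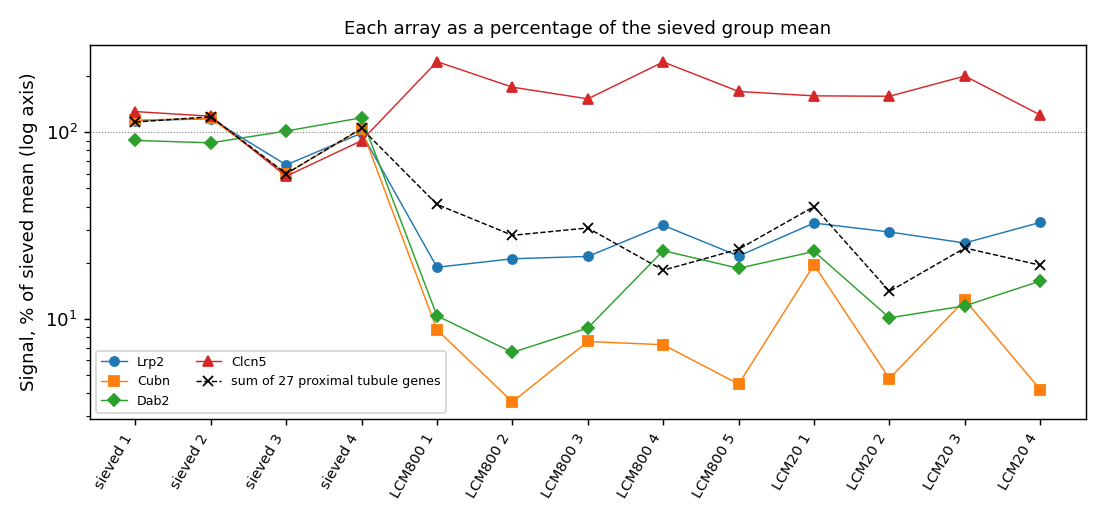
Signal of each gene, and the summed signal of 27 proximal tubule genes, on each of 13 arrays as a percentage of the sieved group mean, on a log axis. In the microdissected arrays Cubn is lowest in 8 of 9 and Clcn5 is highest in all 9, and sieved replicate 3 is low for all lines but that of Dab2. Pck1 makes up 34.0% to 59.0% of the sum in the microdissected arrays.

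Set against the proximal tubule marker genes, of which 26 of 27 fell in each microdissected group, Lrp2 kept more of its sieved signal than most. The median gene of that list had 10.7% of its sieved mean signal in LCM800 and 12.1% in LCM20. Lrp2, at 23.0% and 30.04%, lay above 22 and 24 of the 27 genes, Dab2 above 15 and 17, and Cubn above 6 and 11. Clcn5 lay above 26 and 27 of the genes, Pck1, of glucose synthesis, being the marker with the highest share (216% and 152%). For comparison Slc5a2, the glucose transporter of the early proximal tubule, had 5.52% and 3.13%. These positions are a description of the group means and were not tested.

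The other genes of the endocytic route were taken from lists of 133 genes, of which 113 were on the array and 107 were tested. In LCM800 17 rose, 35 fell and 55 did not pass, so 48.6% changed where 51.9% of all probe sets did, with a median change of −0.26 against 0.22 over all probe sets. In LCM20 14 rose, 36 fell and 57 did not pass, 46.7% against 45.3%, with a median of −0.31 against 0.17. None passed in LCM20 against LCM800 by limma. There 21 of 107 had an unadjusted limma p under 0.05, as did 1952 of all 11106 tested probe sets. With LCM800 replicates 4 and 5 left out 29 of the pathway genes passed in that comparison, as did 2594 of all 11106 probe sets.

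In the list of endocytic partners none of 10 tested genes rose and 5 fell in LCM800, where 31.8% of all probe sets rose and 20.1% fell, with a median of −0.54. Amn, whose product amnionless carries cubilin to the surface, fell, with a change of −2.32 ± 0.46 in LCM800 (SE; adjusted p = 0.000673) and −3.03 ± 0.48 in LCM20 (SE; adjusted p = 0.00015). Its mean signals were 2513 sieved, 515 LCM800 and 273 LCM20 units, and its other probe set fell, with changes of −3.04 and −2.74. Slc9a3, the sodium-proton exchanger of the brush border, fell, with changes of −1.91 ± 0.28 and −2.62 ± 0.29 in LCM800 and LCM20. The other 3 that fell in LCM800, named after their values were seen, were Lrpap1, the chaperone of megalin (−1.86), Fcgrt, the neonatal Fc receptor (−1.68), and Pdzk1, a brush border scaffold (−0.86). In LCM20 5 fell and 1 rose, where 19.2% of all probe sets fell and 26.2% rose. The 1 that rose was Synj2bp, with a change of 0.97. Of its 4 probe sets the 2 others tested had changes of −0.23 and 0.14 and did not pass.

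Of 17 tested clathrin coat and scission genes 3 rose and 1 fell in LCM800, 23.5% against 51.9% of all probe sets. In LCM20 3 rose and 2 fell, 29.4% against 45.3%, with medians of −0.10 and 0.12. Ap2s1, the small subunit of the AP2 adaptor complex, fell, with changes of −3.56 ± 0.29 and −3.27 ± 0.30 (adjusted p = 2.74e-07 and 1.10e-06), from a mean of 1001 units to 25.5 and 53.3 units, under the pseudocount. Another AP2 subunit gene, Ap2m1, fell by 1.19 ± 0.36 in LCM20. Hip1, a clathrin- and actin-binding protein gene, rose by 2.41 ± 0.45 in LCM800, but its other 3 probe sets were at −0.81, 1.49 and 0.66, of which the last did not pass. In LCM20 Hip1 rose by 1.28, with its other probe sets at −0.89, which passed the other way (adjusted p = 0.0263), 0.26 and −0.08, and the coat protein gene Eps15 rose by 1.11, with its other probe set at 0.12, and Amph rose by 0.80 in LCM800. The clathrin chain genes Clta, Cltb and Cltc, chosen after their values were seen, had changes of −0.10, −0.34 and −0.21 in LCM800 and did not pass.

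Of 24 endosome sorting genes 7 rose and 2 fell in LCM800, 37.5% against 51.9% of all probe sets, and 5 rose and 5 fell in LCM20, 41.7% against 45.3%. The medians were −0.02 and 0.04. Rab11b, of recycling endosomes, rose by 1.68 ± 0.24 in LCM800 and 0.99 ± 0.26 in LCM20. Appl1, of early endosomes, rose by 1.74 ± 0.27 and 1.56 ± 0.28, while its other 2 probe sets did not pass. Vps35, the core of the retromer sorting complex, fell, with changes of −1.70 ± 0.22 and −0.99 ± 0.23, and Tsg101, of the multivesicular body machinery, fell, with changes of −1.34 ± 0.29 and −0.85 ± 0.30.

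Of 17 tested genes of endosome acidification and chloride transport 9 fell and 2 rose in LCM800, where 20.1% of all probe sets fell and 31.8% rose. In LCM20 9 fell and 1 rose, where 19.2% fell and 26.2% rose, and the medians were −0.75 and −0.64. Atp6ap1, an accessory subunit of the proton pump, fell, with a change of −3.33 ± 0.25 in LCM800 (SE; adjusted p = 1.37e-07) and −3.39 ± 0.26 in LCM20 (SE; adjusted p = 3.65e-07). Atp6v0c, a membrane subunit of that pump, fell, with changes of −2.85 ± 0.25 and −3.05 ± 0.26. Atp6v1d rose by 0.93 ± 0.20 and 0.88 ± 0.21, and Atp6v0a2 rose by 0.45 ± 0.18 in LCM800. Of the relatives of Clcn5, taken here as a family after their values were seen, Clcn3 and Clcn6 had changes of −1.11 and −1.62 in LCM800 and −1.08 and −2.11 in LCM20. Clcn4 had changes of 0.31 and 0.21 and did not pass, and Clcn7 was below the filter on low values. 

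Lysosome genes had the lowest median of the pathway lists, −1.13 in LCM800 and −1.19 in LCM20, with 11 lower and 2 higher of 17 in the former (20.1% and 31.8% of all probe sets) and 9 and 2 in the latter (19.2% and 26.2%). Psap, which encodes the saposin precursor, fell, with a change of −4.10 ± 0.35 in LCM800 (SE; adjusted p = 4.75e-07) and −2.67 ± 0.37 in LCM20 (SE; adjusted p = 4.59e-05). The protease gene Ctsh fell by 2.34 ± 0.24 in LCM800, and Ctsd, also of a lysosomal protease, fell by 2.61 ± 0.32 in LCM20. Ctss, a cathepsin of antigen-presenting cells, rose by 1.46 ± 0.26 and 1.15 ± 0.27, and Scarb2 rose by 0.77 ± 0.23 and 0.70 ± 0.24.

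Of 9 tested relatives of megalin in the LDL receptor family 1 rose and 2 fell in both comparisons. This was 33.3%, against 51.9% of all probe sets in LCM800 and 45.3% in LCM20. Lrp8 rose by 1.25 ± 0.23 and 1.24 ± 0.25, from a dim sieved mean of 104 units. Lrp10 fell, with changes of −1.54 ± 0.26 and −1.90 ± 0.28. Sorl1, with 6 probe sets on the array, fell, with changes of −0.97 ± 0.21 and −1.12 ± 0.23. Its 3 other tested probe sets had lower changes, from −2.15 to −2.85 in LCM800. Lrp1, chosen after its values were seen, had changes of 0.65 and 0.76 and did not pass. Among 13 tested genes of filtered ligands and vitamin D enzymes 2 rose and 5 fell in LCM800, 53.8% against 51.9% of all probe sets. In LCM20 1 rose and 4 fell, 38.5% against 45.3%. Apoe, a megalin ligand gene, fell, with changes of −3.75 ± 0.34 and −3.83 ± 0.36, as did B2m (−1.80 ± 0.35 in LCM800, its other probe set at 0.00 not passing) and the vitamin B12 carrier gene Tcn2 (−2.11 ± 0.26 in LCM20). Cyp27a1, of sterol and vitamin D hydroxylation, rose by 1.76 ± 0.28 and 0.98 ± 0.29, and Alb, the albumin gene, rose by 1.15 ± 0.27 in LCM800 from a sieved mean of 81.6 units.

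**Figure D5:**
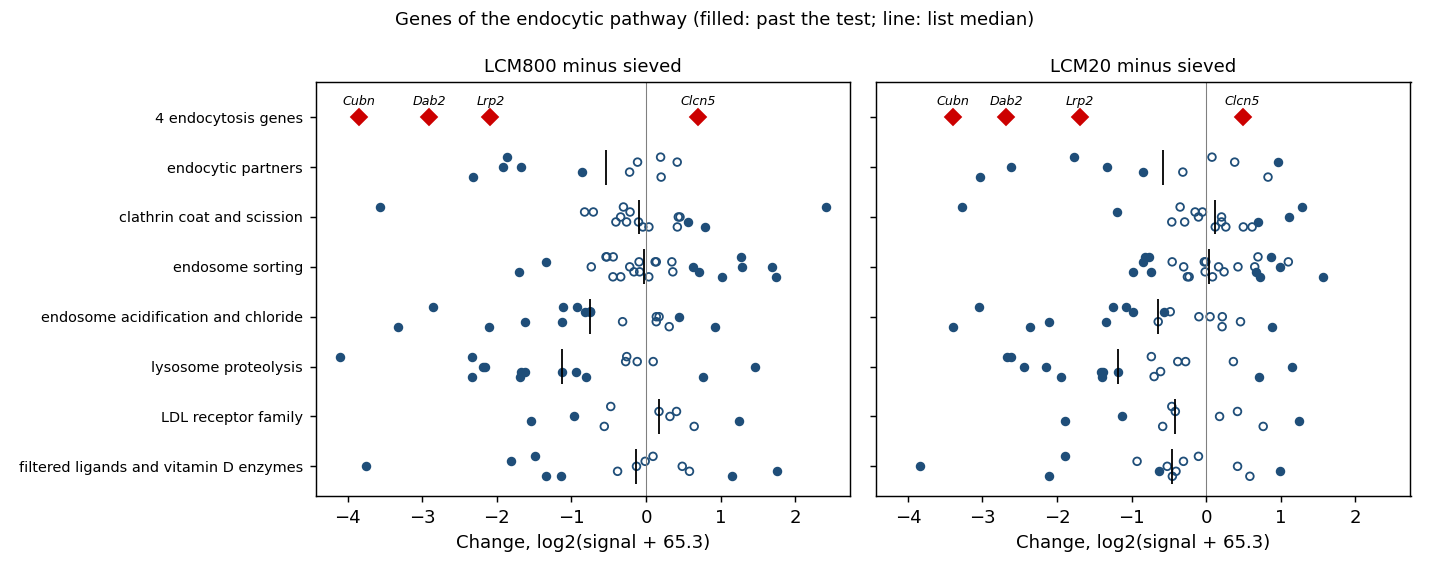
Change on the scale of log2(signal + 65.3) of each tested gene of the 7 endocytic pathway lists and of the 4 endocytosis genes (diamonds), in LCM800 minus sieved and LCM20 minus sieved. Filled points passed the test, open points did not, and lines mark list medians, which are lowest for lysosome proteolysis (−1.13 and −1.19).

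The genes with the array profile most like each gene were those with the smallest root mean square difference between profiles over 13 arrays, each centred on its own mean, among 8042 other genes. For Lrp2 they were Suclg2 (0.17), a mitochondrial succinate ligase gene, P4hb (0.19), Ctsh (0.21), a lysosomal protease gene, Gde1 (0.22) and Ggcx (0.22), on the log2 scale. For Cubn they were Gclc (0.35), of glutathione synthesis, Aadat (0.35), Nat8f1 (0.38), Mep1a (0.39), a brush border meprin gene, and Slc22a25 (0.42). For Dab2 they were Hspa9 (0.27), Cd24 (0.28), Fmo1 (0.38), Gatm (0.40), of creatine synthesis, and Nfs1 (0.44). For Clcn5 they were Ccr4, Hipk3, Aurkc, Aqp8 and Usp25, at 0.13 to 0.15.

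The 4 genes were not among each other's nearest profiles. Lrp2 and Dab2 differed by 0.60, with 632 genes nearer to Lrp2 and 84 nearer to Dab2 than they were to each other. Cubn and Dab2 differed by 0.75, with 93 genes nearer to Cubn and 294 nearer to Dab2. Lrp2 and Cubn differed by 0.99, with 2988 genes nearer to Lrp2 and 279 nearer to Cubn. The profiles of Clcn5 and the other 3 genes differed by 1.21 to 2.04.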

How the data were processed

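The deposited values are array signals of 13 samples as linear intensity, made by the authors with MAS5 per the submitters' processing notes. The version is not given in the sources used here. A trimmed mean near 500 on each array (2% left out at each end) shows prior scaling, so no further normalization was applied.

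Signals were transformed to log2(signal + 65.3), the pseudocount being the 20th percentile of all signals, which understates changes of dim genes. The 57 control probe sets and the lowest 30% by mean log2 were left out, leaving 11106, the 4 genes included. Symbols came from the probe gene table, where 12783 probe sets had 1 symbol, 312 several and 2771 none. A gene was represented by its brightest probe set.

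The group comparisons used R 4.3.3 and limma 3.58.1 (3 groups in 1 fit, intensity trend, two-sided, Benjamini-Hochberg at 0.05 over all tested probe sets), tested on simulated data. Pairs of genes were compared by exact two-sided permutation over arrays.

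The genes, lists and tests were chosen with earlier results of these data known. Lists come from general knowledge. Per list and sieved comparison, the 2 largest rises and falls past the test are named, and others are said to be chosen afterwards. Replicate numbers were not taken as pairs, since the labels tie them to no animal and 3 of 12 same-numbered pairs of arrays had deviations correlated above 0.1. Alternatives tried were the normalization, pseudocount, filter, trend, array weights, block, samples fitted and each array left out.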

Additional observations from a re-analysis of the deposited data

Results flagged for a closer look

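Lrp2 in LCM800 replicate 4 stood apart from its group, at a log2(signal + 65.3) of 11.94 against 11.21 to 11.40 in the other 4 arrays. The gap made up 0.733 of the group's range. Chance marks about 1 in 20 groups in this way, and 12 groups were examined.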

How the results depend on the processing

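All 154 alternative values of the 4 genes against sieved arrays kept their direction and side of the threshold; the 60 counts of genes past the test stayed within 1.5 times. Clcn5 had no value with the lowest 60% left out, where 3 genes passed in LCM800. The Clcn5 change in LCM800 ran from 0.38 with 4 times the pseudocount to 0.998 with none. With the replicate block Lrp2 was at −2.07, Cubn at −3.76, Dab2 at −3.05 and Clcn5 at 0.74 in LCM800, and no call of these genes changed.

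In LCM20 against LCM800 the count of endocytic pathway genes, of 107 tested, was 9 with array weights and 0 to 4 with single arrays left out. It was 29 without LCM800 replicates 4 and 5, an alternative chosen after seeing the data. Of all 11106 probe sets 859 passed with array weights, 504 without LCM800 replicate 4 (4 pathway genes) and 2594 without replicates 4 and 5. Dab2 turned to −0.49 without replicates 1, 2 and 3. Of pair differences in that comparison, with single arrays left out, Lrp2 minus Cubn ran from −0.41 to 0.28 around −0.06 (0.08, 0.00096 and 0.023 without LCM800 replicates 2, 4 and 5, and 0.28 and 0.19 without LCM20 replicates 1 and 3). Cubn minus Dab2 ran from −0.040 to 0.58 (−0.0049 without LCM800 replicate 5, −0.040 without LCM20 replicate 3). Without LCM800 replicates 4 and 5 Lrp2 minus Cubn was 0.13, Lrp2 minus Dab2 −0.16 and Cubn minus Dab2 −0.29. Without replicates 1, 2 and 3 Lrp2 minus Dab2 was 0.68 and Dab2 minus Clcn5 −0.23, and against sieved arrays Cubn minus Dab2 was −1.73 and Dab2 minus Clcn5 −2.94. The cause was not tested. The mean over probe sets of a gene was not run, as each gene has 1. Clcn5, dim on all arrays, is the least certain of the 4.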
